A study of Mus musculus with 13 samples.

Results

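The EGF family ligands Tgfa, Areg, Ereg, Btc, Hbegf and Nrg1 and the receptor genes Egfr, Erbb2 and Erbb3 were followed in bulk RNA of wild-type (WT) mouse ovaries and MP EPO-GEMM ovarian tumors. The genes were chosen by symbol, and all 9 were found among the 53465 genes of the deposited table. The WT group was 3 ovaries of C57BL/6 mice, with the treatment label non-treated. The MP group was 10 ovarian tumors with the genotype label Myc;p53-/- EPO-GEMM, also non-treated. An EPO-GEMM is a mouse model made by injecting plasmids into an adult organ and electroporating it. Here the left ovary of C57BL/6 females aged 8 to 12 wk received Cas9 with an sgRNA against Trp53 and a Sleeping Beauty transposon that overexpresses MYC. The labels of the WT ovaries carry the same protocol and age range, and the age of either group at tissue collection was not given in the sources used here. No promoter or Cre limited the electroporation to 1 cell type, the study describes the resulting tumors as oligoclonal, and RNA was taken from whole tissue. PolyA-selected RNA was read from 1 end at 76 bp.

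EGF family ligands are made as membrane-anchored precursors, and metalloproteases such as ADAM17 cut them free. TGFα and amphiregulin (Areg) bind EGFR. HB-EGF (Hbegf), betacellulin (Btc) and epiregulin (Ereg) bind EGFR and ERBB4, and neuregulin 1 (Nrg1) binds ERBB3 and ERBB4. Ligand binding pairs the receptors and turns on the RAS-ERK and PI3K-AKT routes. ERBB2 has no known ligand and acts as a partner of the others, while ERBB3 has little kinase activity of its own and recruits PI3K when paired. In the ovary, the LH surge induces Areg, Ereg and Btc in granulosa cells, and EGFR signaling then carries the signal for cumulus expansion and oocyte maturation. HER2 and EGFR are also studied as drug targets in epithelial cancers.

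Promoter sequences are shown for Tgfa, Egfr and Erbb2, the members whose RNA was lower in every tumor than in every WT ovary, and for Areg, which was near the detection limit and holds the cAMP-type motif of LH-induced genes. RefSeq promoters (250 bases before to 50 after the start) were matched for 5 of the 9 members. Capitals mark matches on either strand to 4 motifs: the cAMP response element (CRE), the GC box, the TATA box and the E-box, whose letters follow the sequences. No matches overlapped.
Tgfa promoter (chr6:86194972-86195271, + strand, GRCm38.p6): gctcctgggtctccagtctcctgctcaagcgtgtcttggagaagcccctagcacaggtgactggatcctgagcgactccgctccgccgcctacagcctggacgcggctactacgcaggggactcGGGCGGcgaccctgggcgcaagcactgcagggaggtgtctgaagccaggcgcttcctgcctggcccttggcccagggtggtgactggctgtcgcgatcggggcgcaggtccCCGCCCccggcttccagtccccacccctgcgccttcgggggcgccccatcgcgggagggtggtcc
Egfr promoter (chr11:16751953-16752252, + strand, GRCm38.p6): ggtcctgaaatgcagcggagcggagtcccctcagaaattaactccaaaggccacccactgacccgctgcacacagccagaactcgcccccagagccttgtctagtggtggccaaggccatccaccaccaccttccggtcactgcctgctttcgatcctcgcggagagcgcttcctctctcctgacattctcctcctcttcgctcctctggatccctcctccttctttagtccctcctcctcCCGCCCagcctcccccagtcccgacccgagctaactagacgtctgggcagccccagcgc
Erbb2 promoter (chr11:98412234-98412533, + strand, GRCm38.p6): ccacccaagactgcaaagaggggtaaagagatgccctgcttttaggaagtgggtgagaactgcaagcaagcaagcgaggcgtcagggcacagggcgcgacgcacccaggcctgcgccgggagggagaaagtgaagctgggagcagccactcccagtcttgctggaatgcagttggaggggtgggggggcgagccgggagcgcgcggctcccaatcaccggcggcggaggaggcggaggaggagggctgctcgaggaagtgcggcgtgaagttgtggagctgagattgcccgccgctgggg
Areg promoter (chr5:91139349-91139648, + strand, GRCm38.p6): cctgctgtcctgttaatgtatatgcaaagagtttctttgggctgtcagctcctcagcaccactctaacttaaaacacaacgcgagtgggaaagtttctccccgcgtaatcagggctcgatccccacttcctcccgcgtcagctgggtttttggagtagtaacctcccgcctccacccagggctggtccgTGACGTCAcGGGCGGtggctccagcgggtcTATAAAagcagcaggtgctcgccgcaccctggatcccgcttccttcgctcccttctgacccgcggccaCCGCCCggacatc
In Tgfa, GC boxes (GGGCGG) began 126 bases before the start and, on the other strand, 15 bases before it. In Egfr, 1 GC box lay on the other strand 9 bases before the start, and in Erbb2 the window held none of the 4 motifs. Areg held a CRE (TGACGTCA) 61 bases and a GC box 52 bases before its start, and a GC box on the other strand 37 bases after it. Its TATA box (TATAAA) lay 31 bases before the start. The CRE was a reason to show Areg, so its match cannot be read against the share of all promoters. Btc, which the LH surge also induces, had a matched promoter that is not shown and that held none of the 4 motifs. Among all 32851 promoters of the same length, 1.79% held the CRE, 35.7% the GC box, 13.6% the TATA box and 7.15% the E-box (CACGTG), which none of the 4 shown here held. GC content was 70.7% for Tgfa, 66% for Erbb2, 62.3% for Egfr and 59.3% for Areg, against a median of 52.7% over all promoters.

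Values are TPM (transcripts per 1000000, a level per length of the gene that sums to the same total in each library). Depth, worked back from the table, was 31445004 to 64013840 reads in WT ovaries and 3892690 to 19906507 reads in MP tumors. A single read on 1 kb of exon was therefore worth 0.0513 to 0.790 TPM. The 10 most abundant genes held 55.1% of the TPM in MP2, against 7.92 to 20.6% in the other tumors and 10.5 to 11.6% in WT ovaries. Trp53, the targeted gene, was at 80.7, 85.0 and 85.4 TPM in WT ovaries, at 4.30 to 25.99 TPM in MP1 to MP9 and at 187 TPM in the library labelled MP10. The high Trp53 level of MP10 goes against a loss at the RNA level, and whether the edit itself lowers the RNA was not tested. RNA of mouse Myc was at 125.5 to 129 TPM in WT ovaries, at 7.09 to 107.5 TPM in MP1 to MP5 and MP9, and at 222 to 419 TPM in MP6, MP7, MP8 and MP10. The species of the MYC carried by the transposon was not given in the sources used here. The labels give 3 library codes: WT 1 to WT 3 share theirs with MP1 to MP3, while MP4 to MP6 and MP7 to MP10 have codes of their own, with no WT ovary. Summed granulosa cell markers stood at 3225 to 5990 TPM in WT ovaries and 4.46 to 1507 TPM in tumors, and 5 of 5 passed the test as lower. Of the theca and luteal markers 4 of 5 were lower (25020 to 28130 TPM in WT ovaries and 7.44 to 824 TPM in tumors), and of the oocyte markers 5 of 5 (248.5 to 368 TPM and 1.38 to 21.99 TPM). Over all tested genes 14.3% were lower. In these bulk samples, fewer cells of a type and less RNA per cell cannot be told apart.

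The question was which ligands and receptors differ in RNA level between MP tumors and the normal ovary. The ligand Tgfa and the receptor Egfr fell in MP tumors, and no member rose. Erbb2 was below every WT ovary in all 10 tumors as well, without passing the test (limma adjusted P = 0.0632). Such a full separation was found for 16.4% of all tested genes. Hbegf, Btc and Erbb3 spread on both sides of the WT ovaries, and Areg, Ereg and Nrg1 were at low levels in both tissues. The limma test on log2(TPM + 1), a scale that understates the change of low genes, took in genes that reached 1 TPM in at least 3 libraries. Of the 9 members 6 passed this filter, and 2 of these were lower and 0 higher, where 14.3% of all 17277 tested genes were lower and 2.51% higher. Over all tested genes the log2 fold change had a median of -0.58. Relative to that median the tested members stood at -3.86 (Tgfa), -2.04 (Egfr), -1.48 (Erbb2), -0.56 (Erbb3), 0.07 (Btc) and 0.29 (Hbegf).

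**Figure D1:**
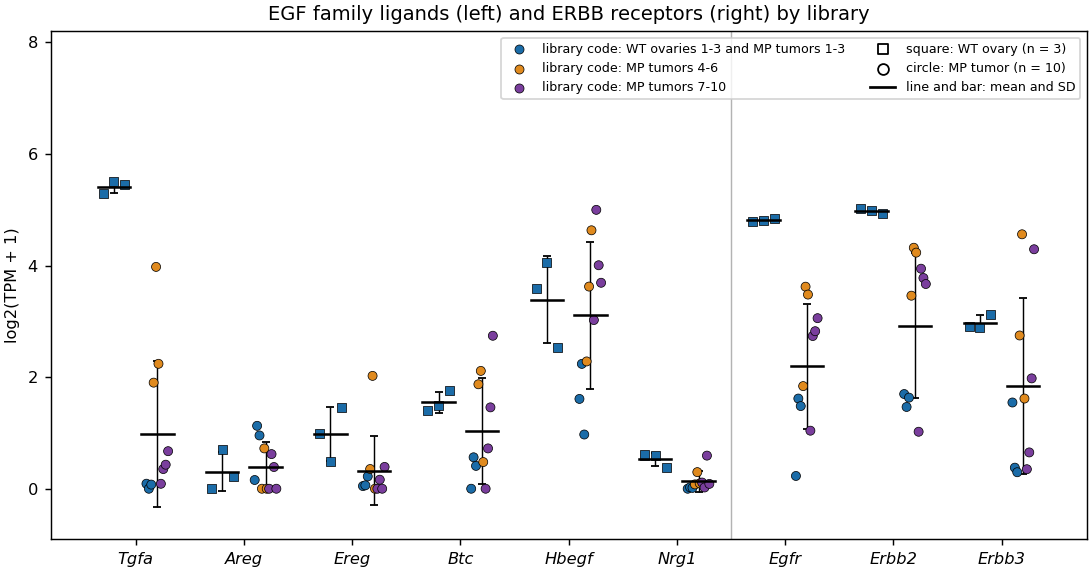
Level of each member in every library, as log2(TPM + 1), with WT ovaries as squares (n = 3), MP tumors as circles (n = 10), colors for the library codes, and lines and bars for mean and SD. All 10 tumors lie below every WT ovary for Tgfa, Egfr and Erbb2, while the tumors lie on both sides of the WT ovaries for Btc, Hbegf and Erbb3.

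Tgfa (ENSMUSG00000029999), the gene of TGFα, lies on the plus strand of chromosome 6 from 86195223 to 86275719 (GRCm38). It was the highest of the 9 members in WT ovaries, at 38.2, 44.6 and 42.5 TPM. In MP1, MP2 and MP3 it was at 0.0643, 0 and 0.0527 TPM, where the 0 reads of MP2 allow up to 0.0832 TPM at a limit of 3 reads. In MP4, MP5 and MP6 it was at 2.74, 14.7 and 3.72 TPM. In MP7 to MP10 it was at 0.0636, 0.277, 0.348 and 0.594 TPM. The groups did not overlap: the highest tumor, MP5, held less than the lowest WT ovary, and in 6 tumors besides MP2 the level rested on 1 to 11 reads. The mean over ovaries was 41.8 ± 3.28 TPM (SD, n = 3) and that over tumors 2.26 ± 4.57 TPM (SD, n = 10). The log2 fold change was -4.43 (standard error 0.73, 95% interval -5.99 to -2.88), with a limma adjusted P of 0.000638, or -3.86 relative to the median gene. Among libraries of the WT code it was -5.36 (limma adjusted P = 1.54e-05), and for MP4 to MP10 against the WT ovaries it was -4.04 (limma adjusted P = 0.00425). Some exon bases of Tgfa are shared with Gm43917 on the other strand, and whether the counting used strand is not given in the sources used here.

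Hbegf (ENSMUSG00000024486, chromosome 18) encodes HB-EGF, the ligand that is also the receptor for diphtheria toxin in humans. Its level was 11.1, 15.6 and 4.76 TPM in WT ovaries. The tumors MP1 to MP4 held 2.05, 3.72, 0.961 and 3.86 TPM, all below the WT ovaries. MP5, MP7, MP9 and MP10 held 11.3, 7.13, 15.1 and 11.9 TPM, within the WT range. MP6 and MP8, at 23.8 and 31.0 TPM, were above every WT ovary. The mean over ovaries was 10.5 ± 5.43 TPM (SD, n = 3) and that over tumors 11.1 ± 9.89 TPM (SD, n = 10). The log2 fold change of -0.28 (standard error 0.76, 95% interval -1.90 to 1.33, limma adjusted P = 0.81) was smaller than the spread between tumors. Its sign turned with the tumors compared: the log2 fold change was -1.78 in MP1 to MP3 (limma adjusted P = 0.0120) and 0.36 in MP4 to MP10 (limma adjusted P = 0.678), and its adjusted P ranged from 0.000286 to 0.979 over 24 alternatives. The median over all tested genes, on the same scale, was -1.19 in MP1 to MP3, where 57.3% of tested genes were lower, and -0.28 in MP4 to MP10.

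Btc, Areg and Ereg, the ligands induced in the ovulating follicle, lie with Epgn in a stretch of 375.5 kb on chromosome 5 (91027464 to 91402994, GRCm38). Btc (ENSMUSG00000082361, minus strand, 91357261 to 91402994) was at 1.64, 1.80 and 2.37 TPM in WT ovaries. In tumors it ran from 0 in MP1 and MP7 to 5.69 TPM in MP10, with a median of 0.564 TPM. The limit of 3 reads at 0 allows up to 0.0923 TPM in MP1 and 0.274 TPM in MP7. Of the tumors 6 were below every WT ovary and 3 above, so the groups overlapped. For Btc the log2 fold change was -0.51 (standard error 0.54, limma adjusted P = 0.512), and in MP1 to MP3 alone it was -1.22 (limma adjusted P = 0.00206, with a range of 0.00123 to 0.931 over 24 alternatives). In MP1 to MP3 the median over all tested genes was -1.19 and 57.3% of them were lower, so Btc was at -0.03 relative to that median. The direction turned with quantile normalization (0.062) and with removal of trends with gene length (0.33), which also brings the libraries to a common level.

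Areg (ENSMUSG00000029378, plus strand, 91139599 to 91148432) was at 0, 0.625 and 0.169 TPM in WT ovaries, on 0, 7 and 4 reads. It reached 1.18 TPM in MP2, on 8 reads, and was at 0 in MP4, MP6, MP7 and MP10, where 0 reads allow up to 0.877 to 1.59 TPM, more than any WT ovary held. Ereg (ENSMUSG00000029377, plus strand, 91074622 to 91093646) was at 0.995, 0.394 and 1.74 TPM in WT ovaries and at 3.06 TPM in MP5, on 16 reads. The other 9 tumors held 0 to 0.312 TPM of Ereg, below every WT ovary and on 6 reads or fewer. Nrg1 (ENSMUSG00000062991), the neuregulin gene on the minus strand of chromosome 8 from 31814551 to 32884029, was at 0.520, 0.503 and 0.302 TPM in WT ovaries. MP9 held 0.509 TPM of Nrg1 on 14 reads, within the WT range, and the other 9 tumors held 0 to 0.229 TPM on 3 reads or fewer. These 3 genes did not pass the filter on low values. When it was dropped, the log2 fold change was 0.09 for Areg, -0.65 for Ereg and -0.39 for Nrg1 (limma adjusted P = 0.861, 0.295 and 0.0683). The unadjusted P for Nrg1 in that limma fit was 0.00978, and the limit of 3 reads in each tumor (at most 0.229 TPM) lay below the lowest WT ovary. For Areg a difference was not detectable at this depth. Exon bases of Ereg are shared with Gm19610 and those of Nrg1 with Gm26578, each on the other strand.

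With all 11 EGF family ligand genes summed, WT ovaries held 56.8 to 69.1 TPM and MP tumors 3.07 to 40.2 TPM (median 17.3). Tgfa was the most abundant ligand in all 3 WT ovaries, with 64.6 to 74.9% of the sum. In tumors its share was 0 to 36.6% (median 1.80%), and it led in MP5 alone. Hbegf led in 8 tumors, with a share of 21.1 to 89.0% over the 10 tumors (median 63.1%), against 8.37 to 22.5% in WT ovaries. The remaining tumor, MP3, was led by Epgn (epigen) at 1.39 TPM on 22 reads. The change in order thus lay in a low Tgfa beside a Hbegf level that overlapped between the groups.

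Egfr (ENSMUSG00000020122), the EGF receptor, lies on the plus strand of chromosome 11 from 16752203 to 16918158 (GRCm38). It was at 26.57, 26.998 and 27.7 TPM in WT ovaries. In MP1, MP2 and MP3 it was at 0.172, 2.07 and 1.79 TPM. In MP4, MP5 and MP6 it was at 2.58, 11.3 and 10.2 TPM, and in MP7 to MP10 at 1.06, 5.67, 6.08 and 7.32 TPM. Every tumor was below every WT ovary, with MP1 the lowest and MP5 and MP6 the highest. The mean over ovaries was 27.1 ± 0.585 TPM (SD, n = 3) and that over tumors 4.82 ± 3.90 TPM (SD, n = 10). The log2 fold change was -2.62 (standard error 0.65, 95% interval -4.00 to -1.24, limma adjusted P = 0.0124), or -2.04 relative to the median gene. The call rested on having all 3 WT ovaries: without WT 1, WT 2 or WT 3 the log2 fold change was -2.63, -2.62 or -2.60, and the limma adjusted P was 0.0624, 0.0613 or 0.0659, the last being the highest over 24 alternatives (lowest 2.22e-06). In MP1 to MP3 against WT ovaries of the same library code it was -3.70 (limma adjusted P = 0.000135), and in MP4 to MP10 it was -2.16 (limma adjusted P = 0.0160).

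Erbb2 (ENSMUSG00000062312), the mouse HER2 gene, lies on the plus strand of chromosome 11 from 98412470 to 98437716. It was at 31.5, 30.9 and 29.6 TPM in WT ovaries, the highest receptor there. The tumors fell into a lower set, MP1, MP2, MP3 and MP7 at 1.03 to 2.24 TPM, and a higher set, the other 6 at 10.0 to 18.97 TPM. All of them were below every WT ovary, which held for 16.4% of the tested genes, while every tumor was above every WT ovary for 3.02% of genes and 0 members. The mean over ovaries was 30.7 ± 0.999 TPM (SD, n = 3) and that over tumors 9.27 ± 6.96 TPM (SD, n = 10). The log2 fold change of -2.06 (standard error 0.73, 95% interval -3.61 to -0.52) missed the threshold after adjustment (limma adjusted P = 0.0632). It passed in 5 of 24 alternatives, with voom on the recovered reads (limma adjusted P = 0.0174), without MP5 (limma adjusted P = 0.0395) and in the 3 fits that compare within the WT library code, where MP1 to MP3 gave -3.39 (limma adjusted P = 2.30e-05). The highest adjusted P over the alternatives was 0.192, and MP4 to MP10 gave -1.49 (limma adjusted P = 0.107). Some exon bases of Erbb2 are shared with Mien1 on the other strand.

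Erbb3 (ENSMUSG00000018166), the neuregulin receptor, lies on the minus strand of chromosome 10 from 128567523 to 128589652. It was at 6.55, 6.37 and 7.76 TPM in WT ovaries. MP5 and the library labelled MP10 held 22.6 and 18.6 TPM, above every WT ovary. The other 8 tumors held 0.228 (MP3) to 5.71 TPM (MP4), below every WT ovary. No tumor lay within the WT range, and the SD between tumors was larger than their mean difference from WT ovaries (6.89 ± 0.757 TPM, SD, n = 3, and 5.52 ± 8.18 TPM, SD, n = 10). The log2 fold change was -1.13 (standard error 0.86, 95% interval -2.96 to 0.69, limma adjusted P = 0.36). Without MP10 it was -1.41 (limma adjusted P = 0.194). In MP1 to MP3 it was -2.24 (limma adjusted P = 0.00107), in MP4 to MP10 it was -0.66 (limma adjusted P = 0.616), and the adjusted P ranged from 7.02e-05 to 0.816 over 24 alternatives. The median of all genes on chromosome 10, relative to all genes, was -0.47 in MP5, -0.51 in MP6 and -0.45 in MP8 (log2), and between -0.08 and 0.11 in the other tumors. Its part in the Erbb3 level was not tested.

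**Figure D2:**
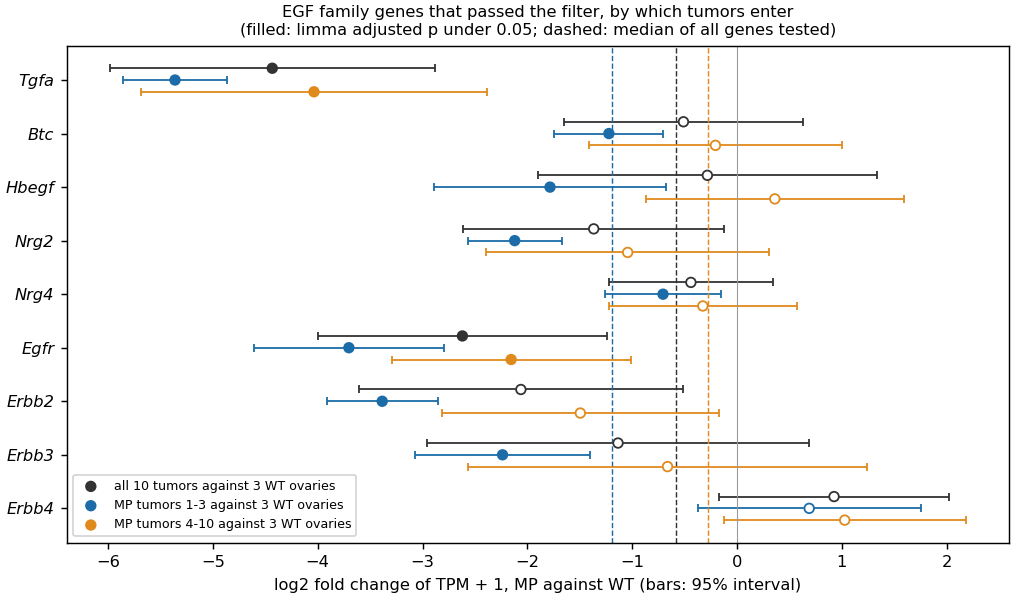
Log2 fold change of TPM + 1 (x axis) of the family genes that passed the filter, with 95% intervals, for all 10 tumors, for MP1 to MP3 and for MP4 to MP10, each against the 3 WT ovaries. Filled points have a limma adjusted p under 0.05 and dashed lines mark the median of all tested genes (-0.58, -1.19 and -0.28). Tgfa and Egfr are filled in all 3 comparisons, and Hbegf turns from -1.78 in MP1 to MP3 to 0.36 in MP4 to MP10.

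The count of lower members differed between the tumors that share the WT library code and the others, and the code, the tumors and their number cannot be told apart. Among MP1 to MP3 and the WT ovaries, all 6 tested members were lower, where 57.3% of tested genes were lower and 6.44% higher. In MP4 to MP10 against the same WT ovaries, Tgfa and Egfr were lower and 0 members were higher, where 13.5% of genes were lower and 4.68% higher. The 2 comparisons share their WT ovaries. Tgfa, Egfr, Erbb2 and Erbb3 had a negative log2 fold change in all 24 alternatives, other scalings included. Tgfa passed the test in each of them, with an adjusted P of at most 0.00818. Without MP10 the log2 fold change was -4.40 for Tgfa and -2.72 for Egfr (limma adjusted P = 0.00119 and 0.0108). Without MP2, the library dominated by few genes, it was -4.32 and -2.56 (limma adjusted P = 0.00146 and 0.0177).

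In WT ovaries the order of the levels was Tgfa, Erbb2, Egfr, Hbegf, Erbb3, Btc, Ereg, Nrg1 and Areg. The first 3 did not overlap with their neighbors, while Hbegf overlapped with Erbb3, Btc with Ereg, Ereg with Nrg1, and Nrg1 with Areg. In MP tumors the medians ran from 10.9 TPM for Erbb2, 9.23 TPM for Hbegf and 4.12 TPM for Egfr to 1.99 TPM for Erbb3, 0.564 TPM for Btc and 0.312 TPM for Tgfa. All neighbors overlapped in the tumors. Tgfa thus held the highest level of the members in the ovary and the sixth highest median in the tumors.

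The make-up of the receptors was even among WT ovaries and varied among tumors. The sum of Egfr, Erbb2, Erbb3 and Erbb4 was 64.7, 64.3 and 65.1 TPM in WT ovaries. It was 3.26 to 6.88 TPM in MP1, MP2, MP3 and MP7, and 18.3 to 54.7 TPM in the other 6 tumors. In WT ovaries Erbb2 held 47.4 ± 1.73%, Egfr 41.9 ± 0.782% and Erbb3 10.7 ± 1.11% of this sum (SD, n = 3). Among tumors the share of Egfr ran from 3.97% (MP1) to 46.6% (MP2), that of Erbb2 from 30.5 to 64.2%, and that of Erbb3 from 2.54% (MP8) to 49.2% (MP10). Erbb2 led in all WT ovaries and in 5 tumors, Egfr in MP2 and MP7, Erbb3 in MP5 and MP10, and Erbb4 in MP3. In MP7 Egfr (1.06 TPM, 29 reads), Erbb2 (1.03 TPM, 13 reads) and Erbb4 (0.902 TPM, 27 reads) were too close to rank.

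**Figure D3:**
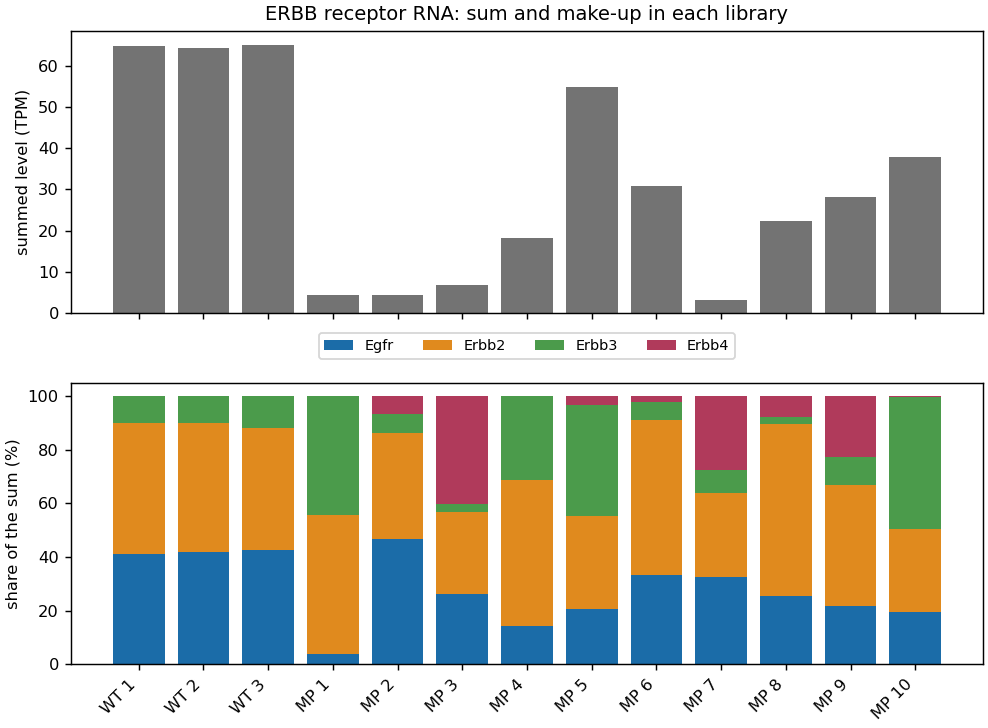
Summed TPM of the 4 ERBB receptor genes in each library (upper bars) and the share of each receptor in that sum, in percent (lower stacked bars). The 3 WT ovaries are nearly alike, with sums of 64.3 to 65.1 TPM, while the tumors range from 3.26 to 54.7 TPM, and Erbb3 takes the largest share in MP5 and MP10.

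Of the 6 other genes of the family 3 passed the filter, and 0 were called in either direction. Erbb4, the other neuregulin receptor, was at 0.0818, 0.0527 and 0.0291 TPM in WT ovaries, on 15, 6 and 7 reads. It was at 0 reads in MP1 and MP4, which allows up to 0.0338 and 0.139 TPM at a limit of 3 reads. The other 8 tumors were above every WT ovary, from 0.156 TPM on 3 reads in MP10 to 2.76 TPM on 299 reads in MP3 and 6.34 TPM on 208 reads in MP9. On the log2 scale the fold change was 0.93 (standard error 0.52, limma adjusted P = 0.219), but 3.73 with voom on the recovered reads and 2.29 with a pseudocount of 0.1 (limma adjusted P = 0.0957 and 0.183). It passed in 1 of 24 alternatives, the removal of trends with gene length (2.04, limma adjusted P = 0.0195), and its highest adjusted P was 0.401. That removal also brings the libraries to a common level, and the 2 effects cannot be told apart.

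Nrg2, a second neuregulin, was at 4.26, 3.28 and 3.91 TPM in WT ovaries. It was at 5.90 TPM in MP5, at 4.15 TPM in MP9 and at 0 to 2.50 TPM in the other 8 tumors (-1.37 on the log2 scale, standard error 0.59, limma adjusted P = 0.118). Nrg2 was called lower in 5 of 24 alternatives, with voom (limma adjusted P = 0.0446), without MP5 (limma adjusted P = 0.0346) and in the 3 fits that compare within the WT library code, where it was at -2.12 (limma adjusted P = 6.64e-05), and its highest adjusted P was 0.309. Nrg4, a ligand of ERBB4, was at 0.718 to 1.61 TPM in WT ovaries and at 0.0592 to 0.780 TPM in 9 tumors, with 3.60 TPM on 53 reads in MP7 (-0.44 on the log2 scale, standard error 0.37, limma adjusted P = 0.405). It was called lower in 2 of 24 alternatives, within the WT library code (-0.71, limma adjusted P = 0.0309) and there with the replicate block (limma adjusted P = 0.0402), and its highest adjusted P was 0.803. Its sign turned in 2 others, quantile normalization (0.24) and removal of trends with gene length (0.45). Within the WT library code Nrg4 stood 0.49 above the median of all tested genes (-1.19). Egf itself was low in both tissues, at 0.246 to 0.597 TPM in WT ovaries and 0.126 to 1.25 TPM in tumors. Epgn was at 0 to 0.120 TPM in WT ovaries and above every WT ovary in 6 tumors, on 1 to 22 reads. Nrg3 rested on 1 read in MP2 and was at 0 in the other tumors. Egf, Epgn and Nrg3 did not pass the filter.

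Epithelial cells of many tissues express these receptors, so their levels were set beside 6 epithelial markers (Krt7, Krt8, Krt18, Krt19, Epcam and Cdh1). The summed markers were 237 to 267 TPM in WT ovaries and 5.67 to 1152 TPM in tumors, and 3 of 6 were lower, where 14.3% of all tested genes were. The count was 4 of 6 within the WT library code and with voom, and 2 of 6 in MP4 to MP10 and with quantile normalization. By their mean log2(TPM + 1), the tumors fell into 4 with low markers (MP3, MP6, MP7 and MP10, at 0.76 to 0.92) and 6 with higher markers (2.35 to 5.67), so no correlation over all tumors is given. Krt19 was listed at 0 in MP6, MP7 and MP10 and Cdh1 in MP6, while Krt18 was at 7.10, 2.06 and 6.89 TPM in these 3 libraries. The tumors with low markers held both high and low receptor levels: MP6 had 17.8 TPM of Erbb2 and 10.2 TPM of Egfr, MP10 had 18.6 TPM of Erbb3, and MP7 had 1.03 TPM of Erbb2.

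Within the 6 tumors with higher markers, Pearson's r with the marker mean was 0.49 for Erbb3 (exact permutation P = 0.34, Spearman's rho 0.657, exact permutation P = 0.175). It was 0.26 for Erbb2 (exact permutation P = 0.604, rho 0.0857, exact permutation P = 0.919) and -0.11 for Egfr (exact permutation P = 0.85, rho 0.0857, exact permutation P = 0.919). These P values are 2-sided over all orders of the tumors, and over the 3 receptors the adjusted P was 0.85 for each r and at least 0.525 for each rho. Without the 2 tumors farthest from the median marker level, r was 0.23 for Erbb3, -0.35 for Erbb2 and -0.27 for Egfr, over 4 tumors that are too few for a test. With median-of-ratios scaling r turned to -0.31 for Erbb2 (rho -0.543) and was -0.59 for Egfr (rho -0.771), with an exact permutation P of 0.554 and 0.225 for r and 0.297 and 0.103 for rho. No relation was detectable over the 6 tumors under either scaling. Each library code held 2 of these 6 tumors, too few for a value.

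**Figure D4:**
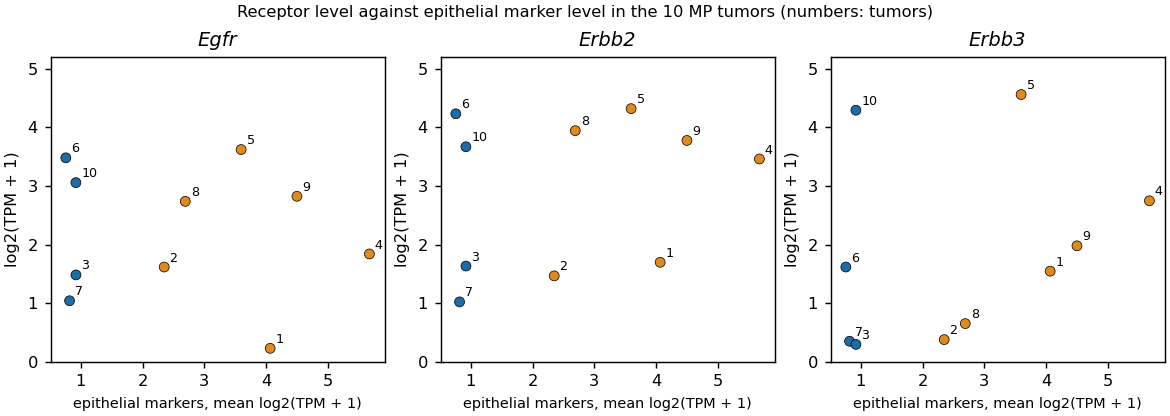
Egfr, Erbb2 and Erbb3 (y axes, log2(TPM + 1)) against the mean log2(TPM + 1) of 6 epithelial markers (x axes) in the 10 MP tumors, with the number of each tumor beside its point. The 4 tumors with low markers (0.76 to 0.92, blue) overlap in receptor level with the 6 with higher markers (2.35 to 5.67, orange), which hold the highest level of each receptor, in MP5, and the lowest Egfr, in MP1.

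Genes that act around the receptors were lower or did not pass the test, and 0 of the 65 tested genes of 5 further lists were higher. Over all tested genes 14.3% were lower and 2.51% higher, and 1 transduction gene was higher when trends with gene length were removed. Of the 4 genes for ligand release 1 was lower: Adam17, the protease that frees TGFα, amphiregulin and HB-EGF, fell from a WT mean of 66.7 ± 1.82 TPM (SD, n = 3) to a tumor mean of 22.7 ± 11.5 TPM (SD, n = 10), by -1.72 on the log2 scale (limma adjusted P = 0.0340). Without WT 1, WT 2, WT 3, MP1 or MP3 the Adam17 call was lost, with a limma adjusted P of up to 0.131. Rhbdf2, the iRhom that guides ADAM17 to the surface, had -1.95 on the same scale and did not pass (limma adjusted P = 0.120), and Adam10 had -0.90 (limma adjusted P = 0.291). The list median was -1.52, against -0.58 for all tested genes, and 4 of 4 were lower within the WT library code, where 57.3% of all tested genes were.

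Of 25 genes of signal transduction 2 were lower, with a list median of -1.08. The count turned on the tumors compared: within the WT library code 23 of 25 were lower, where 57.3% of all tested genes were, and in MP4 to MP10 4 of 25, where 13.5% were. Pik3r1, the regulatory subunit of PI3K, fell from a WT mean of 112 ± 14.2 TPM (SD, n = 3) to a tumor mean of 7.85 ± 7.33 TPM (SD, n = 10), by -4.10 on the log2 scale (limma adjusted P = 0.000675). Gab2, a docking protein that recruits PI3K and SHP2, fell from a WT mean of 88.4 ± 19.1 TPM (SD, n = 3) to a tumor mean of 9.63 ± 11.9 TPM (SD, n = 10), by -3.95 on the log2 scale (limma adjusted P = 0.0108). Pik3r1 kept its call in 24 of 24 alternatives, and Gab2 lost it without WT 1 or WT 2 (limma adjusted P up to 0.0629). Stat3 had a log2 fold change of -1.72 and did not pass (limma adjusted P = 0.0714). The RAS, RAF, MEK and ERK genes of the list were among the 23 that did not pass with all 10 tumors.

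Of 18 inhibitors 1 was lower, with a list median of -1.29, while 18 of 18 were lower within the WT library code, where 57.3% of all tested genes were, and 0 of 18 in MP4 to MP10, where 13.5% were. Spry4, a Sprouty protein that restrains the RAS-ERK route, fell from a WT mean of 10.9 ± 1.31 TPM (SD, n = 3) to a tumor mean of 2.68 ± 2.91 TPM (SD, n = 10), by -2.08 on the log2 scale (limma adjusted P = 0.0352). Its call was lost in 7 of 24 alternatives, among them a pseudocount of 0.1 (limma adjusted P = 0.0782), MP4 to MP10 (limma adjusted P = 0.0559) and the fits without WT 1, WT 2, WT 3, MP1 or MP6, with a highest adjusted P of 0.141. Dusp6, an ERK phosphatase, had -1.91 (limma adjusted P = 0.0597), and Cblb, a ubiquitin ligase that marks EGFR for degradation, had -1.62 (limma adjusted P = 0.0734). Of 9 tested genes that ERK induces 1 was lower, with a list median of -1.13, and 7 of 9 were lower within the WT library code, where 57.3% of all tested genes were, 1 of 9 in MP4 to MP10 and 0 of 9 with a pseudocount of 0.1. Epha2, an ephrin receptor, fell from a WT mean of 11.7 ± 3.80 TPM (SD, n = 3) to a tumor mean of 2.36 ± 3.07 TPM (SD, n = 10), with a limma adjusted P of 0.0217. Its call was lost in 4 of 24 alternatives, a pseudocount of 0.1 (limma adjusted P = 0.0556) and the fits without WT 1, WT 2 or WT 3, with a highest adjusted P of 0.125. Egr1 and Ier3, immediate early genes, had log2 fold changes of -2.10 and -1.86 (limma adjusted P = 0.132 and 0.133).

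Of the ovulation genes, which EGFR and LH signaling use in granulosa and luteal cells, 7 of 9 tested were lower, with a list median of -3.19. Over all tested genes 14.3% were lower. Within the WT library code 7 of 9 were lower, where 57.3% of all tested genes were. In MP4 to MP10 it was 6 of 9, where 13.5% were. Lhcgr, the LH receptor, fell from a WT mean of 599 ± 320.5 TPM (SD, n = 3) to a tumor mean of 0.716 ± 1.80 TPM (SD, n = 10), by -8.60 on the log2 scale (limma adjusted P = 6.90e-08). Fshr, the FSH receptor, had -5.16 (limma adjusted P = 2.04e-07) and Star, which brings cholesterol to the inner mitochondrial membrane, had -7.77 (limma adjusted P = 3.89e-06). Ptx3, Adamts1, Runx1 and Vcan, which act in the cumulus matrix and in the ovulating follicle, also fell. Tnfaip6, also of the cumulus matrix, had 0.86 and Cd44 had -0.40, and neither passed (limma adjusted P = 0.401 and 0.724). Tnfaip6 had a tumor mean of 8.24 TPM against a WT mean of 2.79 TPM. Has2, Ptgs2 and Pgr did not pass the filter. Tumor means of Ptgs2 (0.642 TPM) and Pgr (6.63 TPM) were above the WT means (0.279 and 0.864 TPM), for Pgr through the highest tumor at 66.0 TPM. Lhcgr, Fshr, Star and Runx1 kept their call in 24 of 24 alternatives. Adamts1 lost it without WT 2 or WT 3 and Vcan without WT 1 or WT 2. Ptx3 lost it in 7 alternatives, among them MP4 to MP10 and the fits without WT 1, WT 2 or WT 3. Lhcgr and Star are in the theca and luteal marker list too and Fshr in the granulosa list, so these genes are part of the summed levels of those lists. The part of the lower follicular markers in the receptor and ligand levels was not tested.

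**Figure D5:**
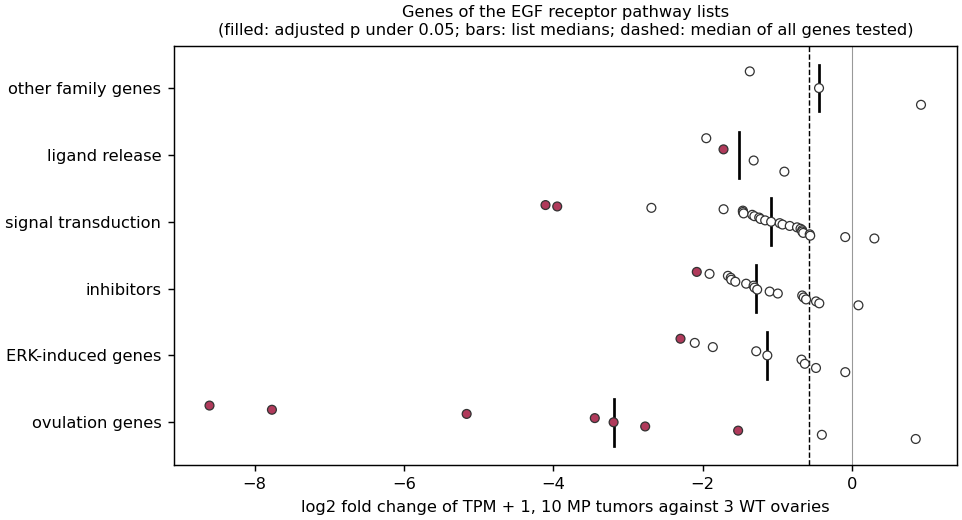
Log2 fold change of TPM + 1 (x axis, 10 MP tumors against 3 WT ovaries) of each tested gene in 6 lists around the EGF receptor, with filled points for a limma adjusted p under 0.05, bars for list medians and a dashed line for the median of all tested genes (-0.58). The ovulation genes hold 7 of the 12 filled points and the lowest list median (-3.19).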

How the data were processed

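RNA was measured in 3 WT ovaries and 10 MP tumors. The authors deposited TPM per gene and library in a single table, without pooling. Per the submitters' processing notes, reads were processed with FastQC 0.11.5, Trimmomatic 0.36, STAR 2.5.3a and featureCounts 1.6.3 on mm10/GRCm38, whereas the labels' extract protocol names a human build, HTSeq and RPKM. Strand handling was not given in the sources used here. Of the genes, 96.0% have the start and end of GENCODE M21. TPM times gene length gave whole multiples of 1 step (within 0.01) for 100% of values above 0 in each library, so depth was worked back by taking the step as 1 read. Intervals for counting error were not computed. Library pairs of a group differed by more than sampling noise (chi-square per degree of freedom 28.4 or more), so none was counted as a second reading of the same library. Separate libraries of the same tissue could also exceed that noise, so this does not show that the samples are distinct. A TPM falls when other genes take a larger share.

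Genes with at least 1 TPM in at least 3 libraries were tested as log2(TPM + 1) with limma 3.58.1 (trended, robust) in R 4.3.3, all 10 tumors against 3 ovaries without a covariate, with Benjamini-Hochberg adjustment over all 17277 genes and a threshold of 0.05. The labels number the samples without naming the animals, so P values measure the spread between these samples. On simulated data, 181 of 200 genes changed 4-fold were recovered with the right sign and 7 unchanged genes were called. The simulation gave both groups the same spread, had no shift over all genes and changed only genes above a low level. The tumors here spread more than the WT ovaries, so these counts do not give the power or error rate for these data. The members and gene lists were chosen with earlier results of these data known. Named genes were the 9 members, the 6 other family genes, in each other pathway list the 3 with the largest absolute moderated statistic and the 3 genes most alike each tested member over the tumors, while cell type markers are given as sums. Krt19, Cdh1, Ptx3, Adamts1, Runx1, Vcan, Tnfaip6, Cd44, Has2, Ptgs2 and Pgr were named after their values were seen. Alternatives varied the pseudocount (0.1), the filter, the scaling, the length trend, the libraries and the limma options. Removal of the length trend also brought the libraries to a common level. The comparison of MP4 to MP10 was chosen after seeing the data. Promoters are from RefSeq (GRCm38.p6). Plots used matplotlib 3.10.9, and tables were handled with pandas 2.3.3 in Python 3.11.15.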

Additional observations from a re-analysis of the deposited data

Results flagged for a closer look

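In 8 of the 15 family genes the highest MP tumor passed Dixon's critical value on TPM. For normally distributed values chance gives 1 in 20, but these levels are strongly skewed with many values near 0, so the count is given as a description and not against that rate. MP5 stood apart for Tgfa at 14.7 TPM on 121 reads (next tumor 3.72 TPM) and for Ereg at 3.06 TPM on 16 reads (next 0.312 TPM). MP9 stood apart for Erbb4 at 6.34 TPM on 208 reads (next 2.76 TPM) and for Nrg1 at 0.509 TPM on 14 reads (next 0.229 TPM). MP7 stood apart for Nrg4 at 3.60 TPM on 53 reads (next 0.780 TPM). MP10 stood apart for Egf at 1.25 TPM on 22 reads (next 0.559 TPM), and MP3 for Epgn at 1.39 TPM on 22 reads (next 0.723 TPM). For Nrg3, MP2 had 1 read (0.0264 TPM) and every other tumor 0, where the limits of 3 reads (0.0502 to 0.348 TPM) are above the MP2 level, so MP2 cannot be set apart.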

How the results depend on the processing

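Over 24 alternatives Tgfa kept its direction and call, and 0 members were called higher in each of them. Sizes moved: Tgfa ran from -6.11 (voom) to -3.53 (length trend removed), Egfr from -3.70 (WT library code) to -1.52 (length trend removed), Erbb2 from -3.39 to -1.19 in these same settings, and Erbb4 from 0.69 (WT library code) to 3.73 (voom). Members called lower were 2 of 6 as reported, 6 within the WT library code, 6 with the replicate block, 4 with the library code as a covariate and 1 to 3 when single libraries were left out. The 1 was without WT 1, WT 2 or WT 3. Over all genes, 2463 were lower and 433 higher (15% of calls higher, median log2 fold change -0.58). Median-of-ratios scaling gave 1887 and 1292 (40.6%), quantile normalization 2091 and 1904 (47.7%), voom on the recovered reads 3300 and 2550 (43.6%), and removal of the length trend 1596 and 1992 (55.5%, median 0.12). The WT library code gave 9902 and 1112, the covariate 8534 and 894, the replicate block 9838 and 1095, and MP4 to MP10 2332 and 808 (25.7%). Leaving out single libraries gave 1158 to 3264 lower and 94 to 635 higher genes: without WT 1 they were 1158 and 135, without WT 2 1195 and 153, and without WT 3 1185 and 94. Genes called lower in the 5 pathway lists and among the 6 other family genes together were 12, but 22 with voom and 61 within the WT library code, where all 18 inhibitors passed, while 0 inhibitors passed with a pseudocount of 0.1 or in MP4 to MP10, and those called higher were 0, but 2 (Erbb4 and 1 transduction gene) without the length trend. Signs turned for Btc (0.062 with quantile normalization, 0.33 without the length trend), Nrg4 (0.24 and 0.45) and Hbegf (0.30 with median-of-ratios scaling, 0.60 with quantile normalization, 0.35 with voom, 0.39 without the length trend, 0.36 in MP4 to MP10, 0.047 without WT 2; it was -0.715 without WT 3, the lowest with 1 library left out, and -1.78 within the WT library code). Erbb2's correlation with epithelial markers turned to -0.31 with median-of-ratios scaling and -0.35 without the 2 farthest tumors, and Egfr's moved from -0.11 to -0.59 with that scaling (rho from 0.0857 to -0.771, exact permutation P = 0.225 and 0.103). The cause of these changes was not tested, apart from the smaller number of samples where libraries were left out. WT and MP libraries 1 to 3 share numbers but nothing in the labels links them, and deviations of same-numbered libraries correlated at -0.0963, -0.0214 and 0.00118, so the numbers do not pair them. Depth limits Areg, whose limits at 0 reads in tumors exceed the WT levels.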

Other observations

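The 15 pairs of tested members varied in likeness over the 10 MP tumors, given here as a description over libraries that differ in depth and scaling. Pearson's r of log2(TPM + 1) was highest at 0.885 between Egfr and Erbb2 and 0.882 between Btc and Erbb3, and 0.781 and 0.767 once each library's median was taken off. It was lowest at 0.254 between Hbegf and Erbb3, 0.283 between Btc and Hbegf and 0.324 between Tgfa and Hbegf, and -0.173, -0.227 and 0.0214 with the medians off. The genes most like each member were Slc4a11 (0.98), Csdc2 and Cacng5 for Tgfa, Shank3 (0.979), Morc4 and Baz1a for Hbegf, and Hlf, Retreg1 and Paqr8 (0.966 each) for Btc. They were Xkr5 (0.964), Shf and Tro for Egfr, Gm43759 (0.965), Bin1 and Xkr5 for Erbb2, and Zkscan7 (0.965), Cnn1 and Gm17334 for Erbb3. Once each library's median was taken off, 2 of the 3 genes stayed in the first 3 for Tgfa, Egfr, Erbb2 and Erbb3, 1 (Shank3) for Hbegf and 0 for Btc. Xkr5 stood in both the Egfr and the Erbb2 list each time.

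Chromosome 11 carries Egfr and Erbb2, and its median relative to all genes was -0.56 in MP9 (log2), where these receptors were at 6.08 and 12.7 TPM. Summed markers of other cell types ranged widely among tumors: fibroblast markers 32.0 to 3369 TPM (948 to 1651 in WT ovaries), endothelial markers 6.04 to 189 TPM (269 to 284), immune markers 30.3 to 165 TPM (100.7 to 248), Schwann cell markers 1.41 to 51.9 TPM (29.9 to 41.9) and skeletal muscle markers 0.585 to 184 TPM (20.3 to 24.7). Of the tested markers 2 of 5 fibroblast, 3 of 5 endothelial, 0 of 4 immune, 1 of 4 Schwann cell and 0 of 3 skeletal muscle markers were lower, and 0 were higher. Over all tested genes 14.3% were lower and 2.51% higher. Within the WT library code the lower ones were 5 of 5, 5 of 5, 4 of 4, 3 of 4 and 0 of 3 in the same order, where 57.3% of tested genes were lower. With voom 1 of 3 skeletal muscle markers was higher.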
